A study of Drosophila melanogaster with 12 samples.

Results

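The nuclear-encoded subunit genes of the mitochondrial respiratory chain were followed in whole females of Drosophila melanogaster that lacked the corpora allata, were sterile, or both. The corpora allata are the glands that make juvenile hormone. Members were the genes whose symbol begins with ND- (NADH dehydrogenase, complex I), UQCR- (ubiquinol-cytochrome c reductase, complex III), COX and a digit (cytochrome c oxidase, complex IV) or ATPsyn (ATP synthase, complex V), among genes with at least 1 Affymetrix probe set annotated to no other gene. The rule found 66 members of 11982 such genes, and each was read from its probe set with the highest mean. Of these, 48 are core subunits (27 in complex I, 4 in complex III, 7 in complex IV and 10 in complex V). The other 18 carry a symbol ending in L, or in L and a digit, and were taken as paralogs by that ending alone (5, 2, 7 and 4 in the same order of complexes). Whether each is a testis-type copy was not tested. ND-MNLL also ends in L but was kept as a core subunit, because that L belongs to the subunit's name. Symbols were the only criterion of membership and no measured value entered it, though earlier results of these data were known. The choice of probe set did use the mean signal on these arrays.

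In the respiratory chain, complex I takes electrons from NADH and complex II from succinate, complex III passes them to cytochrome c, and complex IV passes them to oxygen. The proton gradient built on the way drives complex V, which makes ATP. Complexes I, III, IV and V mix subunits encoded in the mitochondrial DNA with a larger number encoded in the nucleus, and complex II is wholly nuclear. Flight muscle, nervous tissue and the provisioning of the egg all make heavy use of mitochondria. Many Drosophila subunit genes have a second copy whose transcripts are known mainly from the testis.

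The 4 genotypes were CAKO;OvoD1, OvoD1, CAKO and wildtype, each with 3 arrays (n = 3 per genotype in every test below). CAKO females carried Aug21-Gal4 and UAS-GFP with UAS-NIPP1, an inhibitor of protein phosphatase type 1 that removes the adult corpora allata. The labels name no transgene for the wildtype and OvoD1 arrays, so the transgenes and the loss of the glands cannot be told apart. OvoD1 is a dominant allele that stops egg development early, and CAKO;OvoD1 carried it together with the knockout. Each array took RNA of 25 pooled whole females, drawn from 4 cages of 125 females per genotype and described as 14 days old in the protocol and 15 days old in the labels. The design text gives the wildtype a wDah/w1118 background, whereas a legend of the study places CAKO and wildtype in wDAH and the OvoD1 pair in a mixed background, so sterility and background cannot be told apart between fertile and sterile females. The replicates are described as biological, with no cage or day named for each, so the p-values measure the spread between these samples.

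Deposited values are on the log2 scale after GC-RMA, which adjusts background by probe sequence and leaves undetected probe sets at a floor of 2.13. Array medians over all probe sets lay between 2.86 and 2.92, and 35.8% to 38.3% of probe sets on an array were at the floor. A gene passed at an adjusted p under 0.05 in limma, with Benjamini-Hochberg adjustment over all 13871 probe sets kept, and a second count also required at least 1.5-fold, the size limit of the study's methods. As a check of the sterile labels, germ line markers fell in 8 of 8 listed genes in OvoD1 against wildtype (median log2 difference -4.96) and eggshell markers in 8 of 8 (median -9.54). In a whole-body sample, fewer cells of a type and less RNA per cell cannot be told apart.

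All 48 core subunits passed the filter on low values, but ND-B12 (an accessory subunit of complex I, NDUFB3 in human) lay between 2.26 and 2.30 on the 12 arrays, near the floor. Signals of the 27 complex I genes had a median of 12.28 over genes, from ND-B12 at 2.27 to ND-MLRQ at 15.11. The 4 complex III genes lay between 5.04 (UQCR-11) and 14.24 (UQCR-14), the 7 complex IV genes between 13.47 (COX5B) and 14.42 (COX8), and the 10 complex V genes between 13.25 (ATPsyndelta) and 14.68 (ATPsynF). These are signals of different probe sets, which need not bind with equal strength, and no order of abundance is read from them. Replicates lay close together: the SD of a core gene had a median over genes of 0.04 in CAKO;OvoD1, 0.05 in OvoD1, 0.03 in CAKO and 0.07 in wildtype. Wildtype replicate 2 gave the highest of the 3 wildtype values for 40 of the 48 genes, and OvoD1 replicate 2 the highest of the OvoD1 values for 41.

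The first comparison asks what loss of the corpora allata does to these genes in females that still lay eggs. In CAKO against wildtype, 1 core subunit rose (ND-B8), 1 fell (ATPsynC) and 46 did not pass. Over all 9968 genes tested, 8.03% rose and 7.34% fell, beside 1 of 48 core subunits in each direction. The median log2 difference of the core subunits was 0.02, beside 0.00 over all genes, with a range of -0.21 to 1.12 and 29 of 48 values above 0. With the 1.5-fold limit the counts were 1 higher and 0 lower, against 3.89% and 2.3% of all genes. At an unadjusted p under 0.05, 5 core genes were higher and 3 lower.

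ND-B8 (CG15434; NDUFA2 in human, an accessory subunit beside the NADH-oxidizing end of complex I) was the exception. Its log2 values were 8.26, 8.01 and 8.14 in CAKO, against 6.97, 7.10 and 6.96 in wildtype. Every CAKO array lay about 1 unit above every wildtype array. The difference was 1.12 (SE 0.10, 2.18-fold, adjusted p = 0.000133 by limma).

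ATPsynC (CG1746) encodes the subunit that forms the proton-driven ring of ATP synthase. Its log2 values were 14.46, 14.38 and 14.41 in CAKO, against 14.54, 14.54 and 14.55 in wildtype. The groups did not overlap, although the gap was small: the gene fell by 0.13 (SE 0.03, 1.09-fold, adjusted p = 0.0126 by limma). Under limma fitted on these 2 groups alone 0 core genes fell. The methods' t-test called 2 core genes lower at an individual p under 0.05, but 0 of these reached the 1.5-fold that the methods also require, and 0 passed after Benjamini-Hochberg adjustment.

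Intervals bound what the other core subunits could have done. For the 46 genes that did not pass, every 95% interval of the difference in CAKO against wildtype lay within 1.5-fold either way, and 43 lay within 1.25-fold. These counts include ND-B12, whose interval (-0.016 to 0.016) bounds nothing because its signal was near the floor. The lowest bound was -0.46 for UQCR-11 and the highest 0.32 for ND-20, the iron-sulfur subunit next to the quinone site of complex I. A count this low also turned on wildtype replicate 2. Without that array, 6 core genes were higher, ND-B14, ND-B17.2, ND-MLRQ, ND-MNLL and UQCR-14 joining ND-B8, and the median difference was 0.06. With array weights, which discount arrays that deviate, 4 were higher and 2 lower. The shares of all genes without that array or with weights were not counted, so these changes in count are not read as particular to the members. Tissue markers differed in the same pair of genotypes: muscle markers were higher in 4 of 9 measured genes (median 0.65), photoreceptor markers lower in 2 of 6 (median -0.21) and eggshell markers lower in 4 of 8 (median -2.57). The muscle and photoreceptor lists held 12 genes each, and only these 9 and 6 were measured. With muscle and photoreceptor genes as the centre of each array, 1 core gene was higher, 22 were lower and the median was -0.23. Such centring moves all genes alike, and the share of all genes under it was not counted. Counts under it, here and below, are thus not read as particular to the members. The part of tissue composition in these values was not tested.

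The same question was put to sterile females in CAKO;OvoD1 against OvoD1. ND-B8 rose again, UQCR-11 fell, and 46 core subunits did not pass, against 6.61% of all genes higher and 6.05% lower. The median difference was 0.00 (range -0.47 to 0.86, 26 of 48 above 0), as over all genes. With the 1.5-fold limit 1 was higher and 0 lower, where the shares of all genes were 2.26% and 2.19%. At an unadjusted p under 0.05, 4 were higher and 3 lower. All 46 intervals of genes that did not pass lay within 1.25-fold, between -0.25 (ND-B14.7) and 0.25 (ND-39), with ND-B12 near the floor again among them. Muscle markers were higher in 5 of 9 measured genes here (median 0.44), and centring on muscle and photoreceptor genes left 1 core gene higher and put 46 lower, with a median of -0.34.

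For ND-B8 the values were 8.87, 8.80 and 8.91 in CAKO;OvoD1, against 7.79, 8.15 and 8.05 in OvoD1. The groups were again clearly apart, by 0.86 (SE 0.10, 1.81-fold, adjusted p = 0.00101 by limma). The methods' t-test called it at the methods' own threshold (an individual p under 0.05 and at least 1.5-fold) and not after the Benjamini-Hochberg adjustment added here. The study's list of genes higher without the glands in fertile and in sterile females, drawn from the same arrays, already holds this gene as CG15434. ND-B8 was the only core subunit higher after the knockout in both reproductive states, in pairs that share no array but share the model's estimate of its spread. Over all genes, 265 passed as higher in both pairs, 33.1% of those higher in fertile and 40.2% of those higher in sterile females.

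UQCR-11 (CG41623; UQCRH in human, the hinge protein beside cytochrome c1) gave 5.41, 5.30 and 5.14 in CAKO;OvoD1, against 5.68, 5.73 and 5.85 in OvoD1. The groups did not overlap and the gene fell by 0.47 (SE 0.11, adjusted p = 0.0264 by limma). This call was lost, leaving 0 core genes lower, whichever of OvoD1 replicates 1, 2 and 3 and CAKO;OvoD1 replicates 2 and 3 was left out. In fertile females the same gene did not pass (-0.21, SE 0.11, adjusted p = 0.319).

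Whether the knockout acted differently in the 2 reproductive states was tested as the sterile minus the fertile effect. By limma, 0 core subunits passed in either direction, where 2.68% of all genes had a higher and 3.55% a lower effect in sterile females. At an unadjusted p under 0.05, 2 were higher and 1 lower. The median was -0.02 and the range -0.27 (UQCR-11) to 0.21 (ND-39, an accessory subunit of the quinone-reducing part of complex I). ND-B8 had an interaction of -0.26 (SE 0.14, adjusted p = 0.355). ATPsynC, lower after the knockout in fertile females only by the threshold, had an interaction of 0.14 (SE 0.04, adjusted p = 0.0688), so a difference between the states did not pass. Without wildtype replicate 2, 2 genes passed as lower, ND-B14 (-0.17) and UQCR-14 (-0.11).

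**Figure D1:**
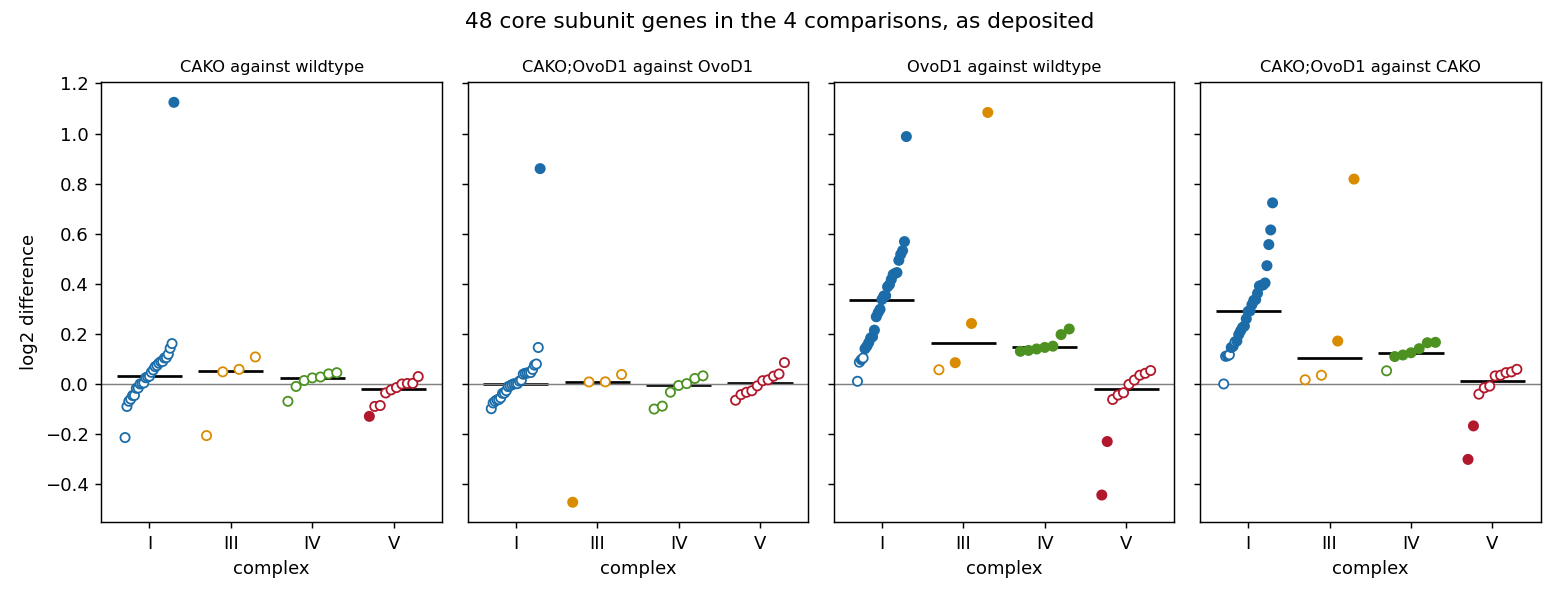
Log2 differences (vertical axis) of the 48 core subunit genes by complex (horizontal axis) in 4 comparisons; each circle is a gene, filled where it passed at an adjusted p under 0.05, and the black line is the median of the complex. In the 2 knockout comparisons the medians lie between -0.02 and 0.05 and ND-B8 stands alone at 1.12 and 0.86, whereas in the 2 sterility comparisons, on the deposited scale, complex I has medians of 0.34 and 0.29 and complex V medians of -0.02 and 0.01; centring on muscle and photoreceptor genes turns every median of the sterility comparisons below 0.

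On the deposited scale far more of these genes passed with sterility than with the knockout, but not after muscle and photoreceptor centring, where 47 of 48 passed in CAKO;OvoD1 against OvoD1 and 46 in each sterility comparison. In OvoD1 against wildtype, 34 core subunits were higher, 2 lower and 12 did not pass, while 32.9% of all genes were higher and 37.5% lower. The median difference of the core subunits was 0.17, from -0.44 to 1.08, with 42 of 48 above 0 and a median of 0.00 over all genes. In CAKO;OvoD1 against CAKO, 31 were higher, 2 lower and 15 did not pass, while 34.4% of all genes were higher and 35.2% lower. There the median was 0.17 as well, from -0.30 to 0.82, with 43 of 48 above 0. In what follows on sterility, a difference in OvoD1 is against wildtype and a difference in CAKO;OvoD1 is against CAKO.

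These shifts were small and their direction is relative to the rest of the array. With the 1.5-fold limit only 2 core genes were higher and 0 lower in OvoD1 against wildtype (25% and 28.5% of all genes), and 3 and 0 in CAKO;OvoD1 against CAKO (25.3% and 26.5%). Other scalings shifted all genes together. For median centring, each array was centred on the median of its 13871 probe sets kept, not of all its probe sets. These medians lay between 6.98 and 7.02 on sterile arrays and between 7.33 and 7.39 on fertile arrays. The centring moved every OvoD1 minus wildtype difference by 0.37 and every CAKO;OvoD1 minus CAKO difference by 0.36. The counts became 46 higher with 0 lower and 47 higher with 0 lower. The share of all genes under this centring was not counted, so these counts, and those below, are not read as particular to the members. Set against 15 muscle and photoreceptor genes the shifts were -0.78 and -0.87, and then 0 core subunits were higher and 46 lower in both comparisons (medians -0.60 and -0.70). Muscle markers were higher in 9 of 9 measured genes in OvoD1 against wildtype (median 0.64) and photoreceptor markers in 6 of 6 (median 0.83), against 0.17 for the core subunits. Summed over the measured genes on the linear scale, the muscle markers ran from 27975 to 30122 in OvoD1 and from 18423 to 20546 in wildtype, and no measured muscle or photoreceptor gene was at the floor. The part of tissue composition in these differences was not tested either.

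**Figure D2:**
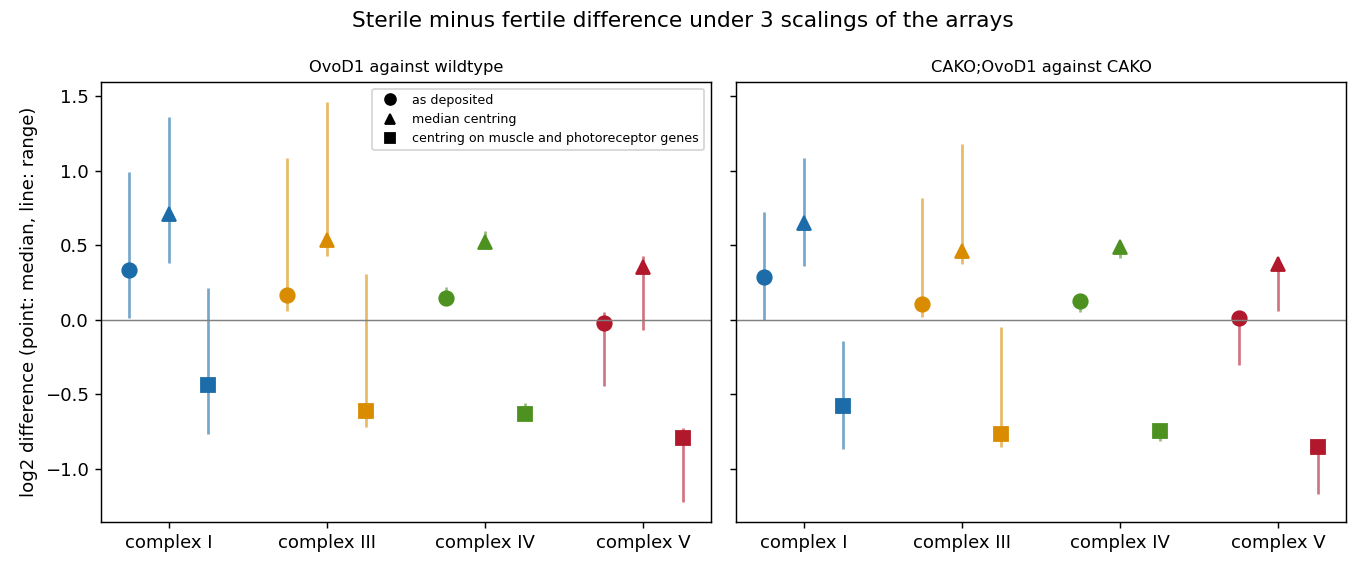
Log2 difference (vertical axis) of the core subunits of each complex (horizontal axis) in OvoD1 against wildtype and in CAKO;OvoD1 against CAKO; the point is the median over genes, the line runs from the lowest to the highest gene, and the 3 symbols are the deposited scale, median centring and centring on muscle and photoreceptor genes. Complex I in OvoD1 against wildtype has a median of 0.34 as deposited, 0.71 after median centring and -0.44 after muscle and photoreceptor centring, while the order of the complexes is the same under all 3.

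Differences between complexes do not depend on these scalings, because each moves all genes of an array alike. Complex I stood highest. In OvoD1 against wildtype 24 of its 27 genes were higher and 0 lower (0 lower also at an unadjusted p under 0.05), with a median of 0.34, and in CAKO;OvoD1 against CAKO 23 were higher and 0 lower (again 0 unadjusted), with a median of 0.29. Complex IV moved less but evenly: 7 of 7 genes were higher in OvoD1 (median 0.15, range 0.13 to 0.22) and 6 of 7 in CAKO;OvoD1 (median 0.12). Complex V did not follow, since 0 of its 10 genes were higher in either comparison (0 also at an unadjusted p under 0.05) and 2 were lower in both, with medians of -0.02 and 0.01. Of the 4 complex III genes, 3 were higher in OvoD1 and 2 in CAKO;OvoD1. These are directions on the deposited scale: after median centring complex V was higher too, in 8 and 9 of 10 genes (medians 0.35 and 0.37), and after muscle and photoreceptor centring the median of every complex was below 0.

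The gap between complexes I and V can be read within each array. The median of the complex I genes minus that of the complex V genes, each gene taken relative to its wildtype mean, was 0.35, 0.32 and 0.30 in CAKO;OvoD1 and 0.33, 0.38 and 0.33 in OvoD1. It was 0.06, 0.07 and 0.08 in CAKO and -0.02, 0.04 and -0.01 in wildtype. All 6 sterile arrays lay above all 6 fertile arrays. In group means ± SD the gap was 0.32 ± 0.03 in CAKO;OvoD1, 0.35 ± 0.03 in OvoD1, 0.07 ± 0.01 in CAKO and 0.00 ± 0.03 in wildtype (n = 3 each).

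**Figure D3:**
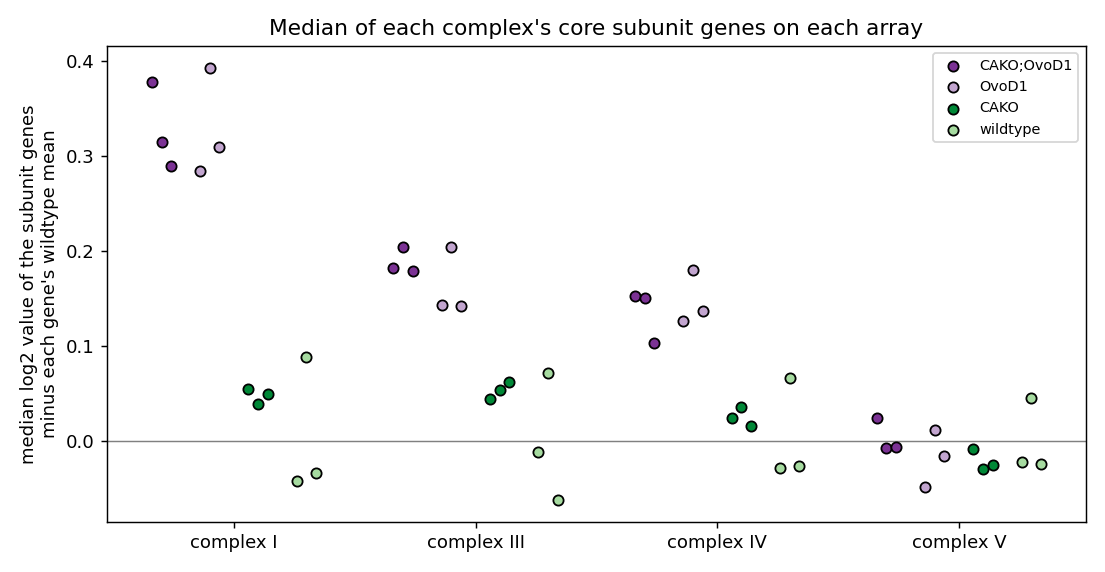
Median log2 value of the core subunits of each complex on each of the 12 arrays, after subtraction of each gene's wildtype mean (vertical axis), for the 4 complexes (horizontal axis) and 4 genotypes (colours). For complex I the sterile arrays lie between 0.28 and 0.39 and the fertile arrays between -0.04 and 0.09 on the deposited scale, while for complex V all 12 arrays lie between -0.05 and 0.05.

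Genes of similar signal give a background for the difference in size between complexes. Among all 164 genes tested with a mean signal of 13 to 14, 58.5% were higher and 23.8% lower in OvoD1 against wildtype, with a median of 0.24. In that band the 3 complex I genes had a median of 0.17, the 3 complex IV genes 0.20 and the 6 complex V genes -0.02. Among the 332 genes from 12 to 13, which hold 12 complex I genes, the median was 0.34 over all genes and 0.29 over complex I. Among the 128 genes from 14 to 17 the median was 0.15, beside 0.14 for complex IV and -0.11 for complex V. Below a signal of 12 the complex I genes other than ND-B14.5A (0.10) lay above the median of their band: the 8 genes from 11 to 12 had a median of 0.42, beside 0.19 over all 557 genes there (upper quartile 0.90), ND-13B had 0.52 beside -0.07 in the band from 9 to 11, and ND-B8 had 0.99 beside -0.42 in the band from 6 to 9. Thus from 12 up the complex I and IV genes were near the middle of genes with signals like theirs, and complex V was below it, though still above the lower quartile of those genes (-0.10 and -0.12).

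Within complex I the largest differences belonged to ND-B8 and ND-75. ND-75 (CG2286; NDUFS1 in human) is the iron-sulfur subunit that carries electrons away from the NADH-binding flavin. It had 11.46, 11.51 and 11.58 in OvoD1, against 10.91, 10.93 and 11.01 in wildtype, and 11.51, 11.53 and 11.52 in CAKO;OvoD1, against 10.97, 10.84 and 10.89 in CAKO. Sterile and fertile arrays were far apart, while the knockout differences were -0.05 in CAKO against wildtype (adjusted p = 0.667) and 0.00 in CAKO;OvoD1 against OvoD1. The gene was higher by 0.57 in OvoD1 (SE 0.04, 1.48-fold, adjusted p = 1.48e-06 by limma) and by 0.61 in CAKO;OvoD1 (SE 0.04, adjusted p = 1.03e-06 by limma), and at -0.21 and -0.25 it turned to lower after muscle and photoreceptor centring.

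ND-B8 was also higher in sterile females, by 0.99 in OvoD1 against wildtype (adjusted p = 1.05e-05) and by 0.72 in CAKO;OvoD1 against CAKO (adjusted p = 0.000102, both by limma). Thus wildtype held the lowest 3 values of the 12 and CAKO;OvoD1 the highest 3, while CAKO and OvoD1 overlapped and together spanned 7.79 to 8.26. Muscle and photoreceptor centring turned its CAKO;OvoD1 minus CAKO difference to -0.14, and its OvoD1 minus wildtype difference did not pass there (0.21).

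By place in the enzyme, as known from mammals and assigned after the values had been seen, the 11 genes of the matrix arm, which oxidizes NADH and reduces quinone, had median differences of 0.44 in OvoD1 against wildtype and 0.34 in CAKO;OvoD1 against CAKO. The 14 genes of the membrane arm, which pumps protons, had medians of 0.29 and 0.23. Besides the pair above, the matrix-arm genes ND-13B (0.52), ND-B17.2 (0.49), ND-13A and ND-B14 (both 0.44) and ND-20 (0.39) were higher in OvoD1. Among membrane-arm genes ND-B17 (0.53), ND-B14.7 (0.44), ND-ASHI (0.42) and ND-15 (0.40) were higher. At the small end, ND-42 was higher by 0.10, whereas ND-B14.5A (0.10, adjusted p = 0.109) and ND-SGDH (0.09, adjusted p = 0.19) did not pass. ND-51, which holds the flavin that accepts electrons from NADH, was higher in OvoD1 (0.21, adjusted p = 0.0209) but did not pass in CAKO;OvoD1 (0.17, adjusted p = 0.0593). ND-MLRQ, a small subunit that in mammals was reassigned to complex IV, was higher by 0.18 and 0.11. All of these values are on the deposited scale, and the shifts of -0.78 and -0.87 under muscle and photoreceptor centring turn each of them below 0.

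Probe sets disagreed in sign for 1 complex I gene. ND-ACP, the mitochondrial acyl carrier protein that also sits in complex I, was higher in OvoD1 by 0.14 (adjusted p = 0.0397), but its other 2 probe sets gave -0.11 (adjusted p = 0.133) and -0.04 (adjusted p = 0.505). A second probe set of ND-B17 was higher as well, by 0.30 against 0.53.

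In complex III, UQCR-11 had the largest difference of any core subunit in both sterility comparisons. Its fertile values were 4.33, 4.52 and 4.54 in CAKO and 4.87, 4.61 and 4.54 in wildtype, so every sterile array given above exceeded every fertile array. The difference was 1.08 in OvoD1 against wildtype (SE 0.11, 2.12-fold, adjusted p = 1.4e-05) and 0.82 in CAKO;OvoD1 against CAKO (SE 0.11, 1.76-fold, adjusted p = 0.00011, both by limma). After muscle and photoreceptor centring the first did not pass (0.31) and the second turned to -0.05. UQCR-14, a subunit near the quinone site, was higher by 0.24 and 0.17 and UQCR-Q by 0.08 in OvoD1, while UQCR-6.4 did not pass (0.06 and 0.02).

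Complex IV genes moved within narrow limits on the deposited scale. COX5A, a matrix-facing subunit, had values of 14.34, 14.38 and 14.38 in OvoD1 and 14.38, 14.35 and 14.37 in CAKO;OvoD1. In fertile females it had 14.24, 14.26 and 14.23 in CAKO and 14.20, 14.29 and 14.15 in wildtype. All sterile arrays lay above all fertile arrays, and the gene was higher by 0.15 in OvoD1 (adjusted p = 0.00234) and by 0.12 in CAKO;OvoD1 (adjusted p = 0.00732, both by limma). COX7C (0.22) and COX7A (0.20) had the largest differences in OvoD1, and COX4, COX5B, COX7B and COX8 lay between 0.13 and 0.15. COX7B alone did not pass in CAKO;OvoD1 (0.05, adjusted p = 0.275).

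Both core subunits that fell with sterility belong to complex V. For ATPsynC the sterile values were 14.06, 14.12 and 14.12 in OvoD1 and 14.12, 14.15 and 14.08 in CAKO;OvoD1, all below the fertile values given above. It fell by 0.44 in OvoD1 against wildtype (SE 0.03, 1.36-fold, adjusted p = 3.84e-07) and by 0.30 in CAKO;OvoD1 against CAKO (SE 0.03, adjusted p = 5.85e-06, both by limma), while after median centring the first lost its call (-0.07) and the second turned to 0.06. On the deposited scale the order of its groups was wildtype, then CAKO, then the sterile genotypes, which did not differ beyond their spread (0.01, SE 0.03, adjusted p = 0.842), an order that median centring does not keep.

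ATPsynbeta (CG11154), the catalytic subunit, had 14.60, 14.60 and 14.49 in OvoD1, against 14.85, 14.82 and 14.71 in wildtype, and 14.62, 14.50 and 14.48 in CAKO;OvoD1, against 14.76, 14.68 and 14.66 in CAKO. The groups of each pair did not overlap, by a narrow margin. The gene fell by 0.23 (adjusted p = 0.00431) and by 0.17 (adjusted p = 0.0233, both by limma), and both became higher, by 0.14 and 0.19, after median centring. A second ATPsynbeta probe set gave -0.13 (adjusted p = 0.0117) and -0.06 (adjusted p = 0.247), and the second call was lost without CAKO replicate 1 or CAKO;OvoD1 replicate 2 or 3. The other 8 complex V genes, among them the stalk and stator subunits ATPsyngamma, ATPsyndelta, ATPsynO and ATPsynB, lay between -0.06 and 0.06 in both comparisons.

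**Figure D4:**
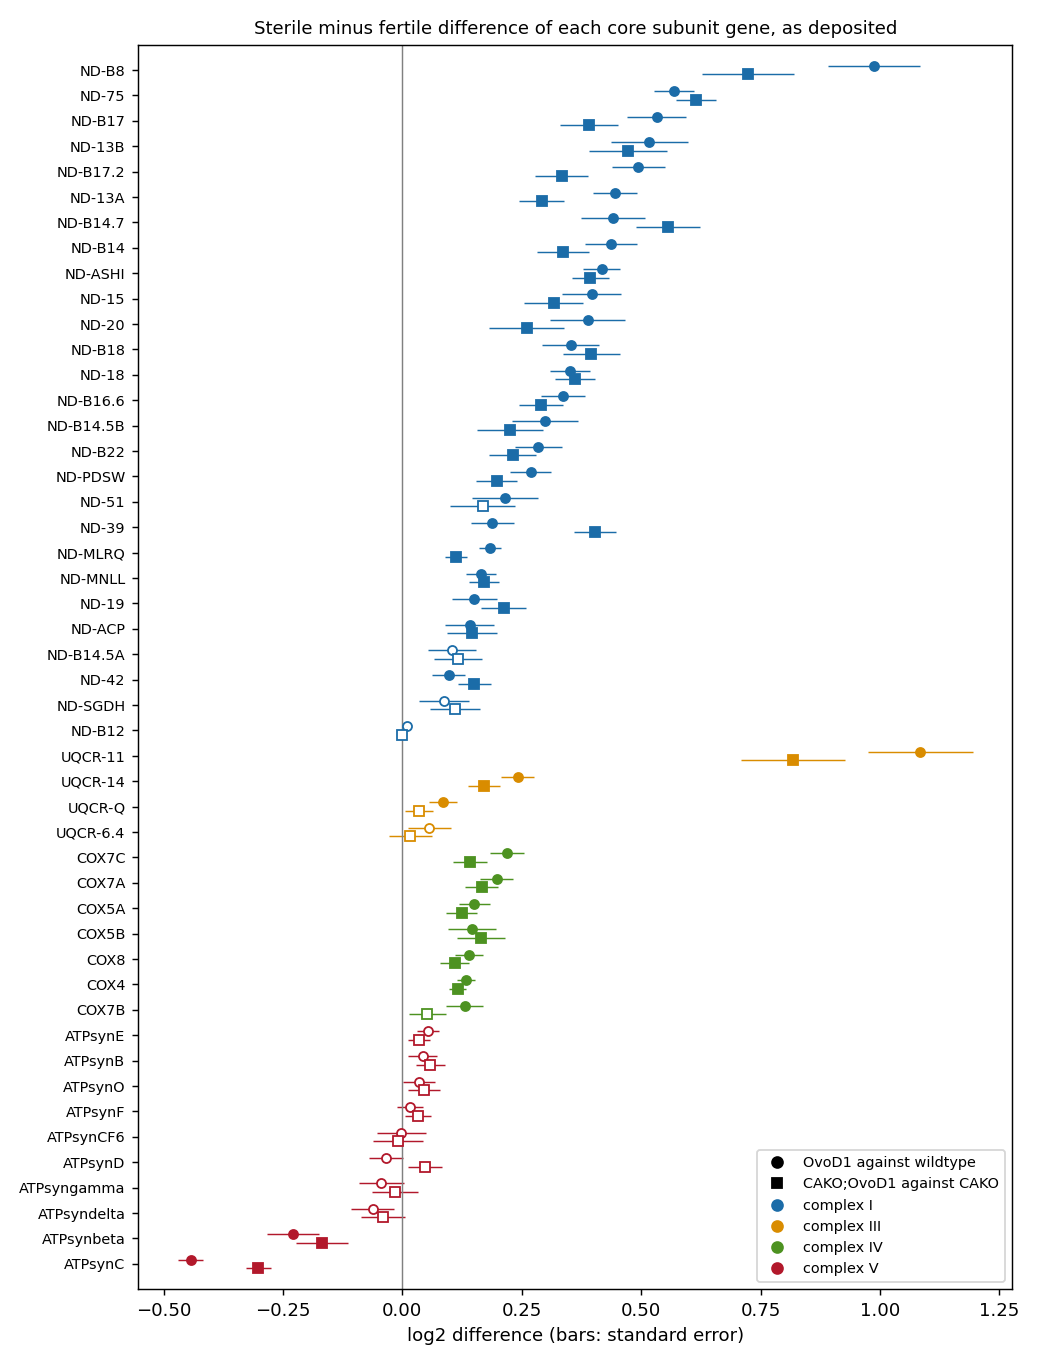
Log2 difference (horizontal axis) of each of the 48 core subunit genes in OvoD1 against wildtype (circles) and CAKO;OvoD1 against CAKO (squares), with the standard error as a bar, coloured by complex and filled where the gene passed at an adjusted p under 0.05. On the deposited scale 24 and 23 of 27 complex I genes are filled to the right of 0, and in complex V only ATPsynbeta and ATPsynC are filled, to the left; after muscle and photoreceptor centring no core gene is higher in either comparison.

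The 2 sterility comparisons share no array, but they share the model's estimate of each gene's spread and the possible difference in background. They are thus not fully independent. Of the 34 core genes higher in OvoD1 against wildtype, 31 were also higher in CAKO;OvoD1 against CAKO (91.2% of the first list and 100% of the second), and only ND-51, UQCR-Q and COX7B were not. Over all genes 3003 were higher in both, 91.6% of 3279 and 87.6% of 3430. ATPsynC and ATPsynbeta were lower in both. For 41 of the 48 genes both sterile means lay above both fertile means (26 of 27 in complex I, 4 of 4 in complex III, 7 of 7 in complex IV and 4 of 10 in complex V), and for 3, all in complex V, both lay below. This order of means was not counted over all genes, so it is not read as particular to the members.

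Most paralogs gave no signal. Of the 18, 12 lay within 0.2 of the floor on every array, 10 of them at it on all 12 arrays, and 4 exceeded the floor by 0.2 to 1 unit on at least 1 array (ND-20L, COX6AL, ATPsynbetaL and ATPsynepsilonL), with 2.88 for ATPsynbetaL in OvoD1 replicate 3 as the highest. In all, 8 paralogs passed the filter on low values. Testis and stored-sperm markers were alike, with 9 of 11 within 0.2 of the floor in every genotype. That left 2 paralogs with a clear signal.

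COX7AL2 (CG34172) is a paralog of COX7A by its name. Without the knockout it had 12.73, 12.96 and 12.89 in OvoD1 and 11.78, 12.19 and 12.02 in wildtype. With it the values were 13.10, 13.05 and 13.21 in CAKO;OvoD1 and 12.47, 12.45 and 12.49 in CAKO. No genotype overlapped another. The gene was higher by 0.86 in OvoD1 against wildtype (SE 0.10, 1.82-fold, adjusted p = 3.25e-05), by 0.65 in CAKO;OvoD1 against CAKO (SE 0.10, adjusted p = 0.000253) and by 0.47 in CAKO against wildtype (SE 0.10, 1.38-fold, adjusted p = 0.0136), all by limma. The call in CAKO was lost after muscle and photoreceptor centring (0.22), in a fit of these 2 groups alone and in the methods' t-test after adjustment. In CAKO;OvoD1 against OvoD1 it did not pass (0.26, SE 0.10, adjusted p = 0.147), nor did the interaction (-0.21, SE 0.14, adjusted p = 0.493). COX7A itself was higher by 0.20 in OvoD1 and at -0.07 did not pass in CAKO against wildtype (adjusted p = 0.282). The CAKO;OvoD1 minus CAKO difference of COX7AL2 became -0.22 after muscle and photoreceptor centring, and its call in OvoD1 against wildtype was lost.

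UQCR-11L (CG30354) had 5.75, 5.69 and 5.88 in OvoD1 and 4.38, 4.07 and 4.42 in wildtype, and 4.79, 5.81 and 5.38 in CAKO;OvoD1 and 4.32, 4.37 and 4.46 in CAKO. Sterile arrays were above fertile arrays, with a wide spread in CAKO;OvoD1. It was higher by 1.48 in OvoD1 (SE 0.22, 2.79-fold, adjusted p = 0.000218) and by 0.94 in CAKO;OvoD1 (SE 0.22, adjusted p = 0.00421, both by limma), next to 1.08 and 0.82 for UQCR-11. The second call was lost after muscle and photoreceptor centring (0.07) and in the methods' t-test after adjustment. Whether probes for a gene and its paralog bind both transcripts was not tested.

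**Figure D5:**
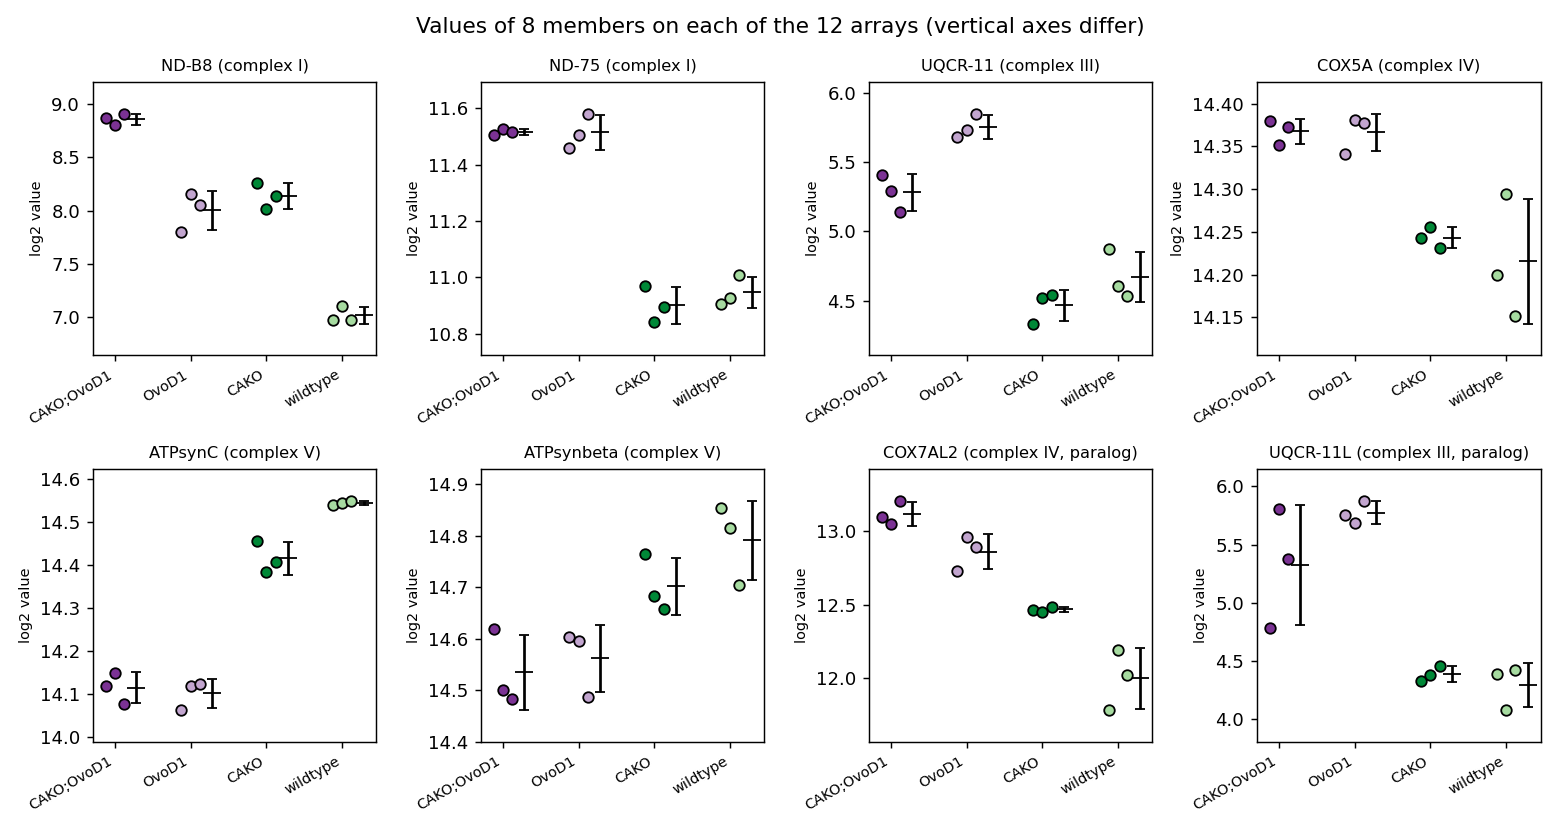
Log2 values of 8 members on each array (vertical axes, which differ between panels) in CAKO;OvoD1, OvoD1, CAKO and wildtype (horizontal axis); circles are arrays, and the bar at their right is the mean ± SD (n = 3). ND-B8 and COX7AL2 are lowest in wildtype and highest in CAKO;OvoD1, ND-75, UQCR-11, UQCR-11L and COX5A separate sterile from fertile arrays, and ATPsynC and ATPsynbeta do so the other way; after muscle and photoreceptor centring ND-75 and COX5A are lower in the sterile genotypes and the CAKO;OvoD1 minus CAKO differences of ND-B8, COX7AL2 and UQCR-11 are below 0, and after median centring ATPsynbeta is higher. Under muscle and photoreceptor centring ND-B8, COX7AL2 and UQCR-11 also do not pass in OvoD1 against wildtype.

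Genes of the same pathway whose symbols lie outside the rule were set beside the members. Of 10 measured respiratory partners (complex II subunits, further subunits of complexes III to V), 7 were higher and 1 lower in OvoD1 against wildtype and 8 higher and 1 lower in CAKO;OvoD1 against CAKO, with medians of 0.32 and 0.21. The complex II genes SdhB (0.48), SdhC (0.44) and SdhD (0.40), the complex III genes RFeSP (the Rieske iron-sulfur protein, 0.33) and ox (0.37), and the complex IV genes cype (0.30) and levy (0.17) were higher in OvoD1. The gene blw, which encodes the alpha subunit of ATP synthase, fell by 0.14 in OvoD1 (adjusted p = 0.014), as ATPsynbeta did. After median centring 10 and 9 of the 10 were higher, and after muscle and photoreceptor centring 10 of 10 were lower in both. In CAKO against wildtype SdhC (0.25, adjusted p = 0.0222) and ox (0.14, adjusted p = 0.0393) were higher, and in CAKO;OvoD1 against OvoD1 0 of 10 passed by limma (0 at an unadjusted p under 0.05). With muscle and photoreceptor centring 0 of 10 were higher in CAKO by limma (0 unadjusted) and 1 was lower.

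Of 7 measured genes of the tricarboxylic acid cycle, which feeds NADH and succinate to the chain, 5 were higher and 1 lower in OvoD1 against wildtype, and the same counts held in CAKO;OvoD1 against CAKO. ScsbetaA (succinyl-CoA ligase, 0.55) had the largest difference in OvoD1, and Idh3a fell by 0.24. Median centring made all 7 higher in both, and muscle and photoreceptor centring all 7 lower. Ogdh, which encodes a 2-oxoglutarate dehydrogenase subunit, was higher after the knockout in both states, by 0.43 in CAKO against wildtype (adjusted p = 0.00463) and by 0.31 in CAKO;OvoD1 against OvoD1 (adjusted p = 0.0288). Idh3b was higher in CAKO (0.29, adjusted p = 0.00994) and did not pass in CAKO;OvoD1 against OvoD1 (0.20, adjusted p = 0.0592), with an interaction of -0.09 that did not pass either (adjusted p = 0.626). After muscle and photoreceptor centring 0 of the 7 were higher after the knockout in either state by limma (0 unadjusted).

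Carriers and biogenesis factors went mostly the other way on the deposited scale: 1 of 7 was higher (Ant2, an adenine nucleotide translocase, 0.44) and 5 lower in OvoD1 against wildtype. TFAM, which packages mitochondrial DNA, fell by 1.17 in OvoD1 and by 1.10 in CAKO;OvoD1, ewg, related to the nuclear respiratory factor of vertebrates, by 1.19 and 0.56, the outer-membrane channel gene porin by 0.46 and 0.39, and the complex IV assembly gene Scox by 0.79 and 0.64. The assembly factor Surf1 fell by 0.15 and 0.23, and the translocase sesB did not pass (-0.07 and -0.01). Median centring left 3 higher and 3 lower in OvoD1, and muscle and photoreceptor centring 0 higher and 6 lower. Germ line markers fell in the same comparisons. After the knockout ewg fell in fertile females (by 0.43, adjusted p = 0.00566) and not in sterile females (0.20, adjusted p = 0.138), a difference that passed as an interaction (0.63, adjusted p = 0.0131 by limma) and lost that call after muscle and photoreceptor centring (0.53).

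A further 3 genes begin with Cox and a digit but encode assembly factors, not subunits, and were kept apart. Cox11, which delivers copper, was higher in CAKO against wildtype (0.31, adjusted p = 0.0315) and fell by 0.27 in OvoD1 and by 0.51 in CAKO;OvoD1. Cox17, a copper chaperone, was higher in CAKO (0.22, adjusted p = 0.0182), in OvoD1 (0.40) and in CAKO;OvoD1 (0.31), and Cox10 passed in none of the 5 tests. After median centring the Cox11 differences were 0.11 in OvoD1 and -0.15 in CAKO;OvoD1, and none of the 3 genes was lower. After muscle and photoreceptor centring all 3 were lower in both sterility comparisons, Cox17 with -0.38 and -0.56, and both calls in CAKO were lost. On the deposited scale both copper factors thus differed after the knockout in fertile females, where 0 of 7 complex IV subunits did by limma (0 at an unadjusted p under 0.05).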

How the data were processed

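Each sample was hybridized to 1 Affymetrix Drosophila 2.0 array, 12 in all. The authors quantile normalized and GC-RMA adjusted the arrays and deposited log2 values, used here as they stand; the GC-RMA version is not stated. The normalization sets all arrays to a common distribution, so differences are relative to it. The array holds 18952 probe sets: 13647 name 1 gene, 402 more than 1 and 4903 no gene. By Entrez gene identifier, 13544 were found in the RefSeq table, and 0 symbols needed updating. A filter on low values dropped the 5081 probe sets whose mean fell in the lowest quartile (25%) of every genotype. R 4.3.3 with limma 3.58.1 (lmFit, contrasts, eBayes with a trend) fitted 4 genotypes over 12 arrays with 8 residual degrees of freedom. The p-values are two-sided and were adjusted by Benjamini-Hochberg over the 13871 probe sets kept. SE and 95% intervals come from this model. It was run on simulated data with noise drawn separately for each probe set, so deviations shared across an array were not covered.

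Named genes were up to 3 rises and 3 falls per comparison with no overlap between groups, the highest, second highest and lowest mean of each complex, and paralogs over 1 unit above the floor, 17 in all. Genes named beside them were chosen after their values were seen. Members and lists were chosen with earlier results of these data known. Subunit genes without a probe set of their own were not analysed here. The alternatives are the 1.5-fold limit, other filters, scalings, weights, probe-set means, 2-group fits, the methods' t-test (with Benjamini-Hochberg adjustment, and at the methods' unadjusted threshold), a replicate block, and each array left out.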

Additional observations from a re-analysis of the deposited data

How the results depend on the processing

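Under the 1.5-fold limit the core subunits lower were 0 in all 4 comparisons, and those higher 2 in OvoD1 against wildtype and 3 in CAKO;OvoD1 against CAKO. Median centring gave 0 lower in both sterility comparisons and 47 higher in CAKO;OvoD1 against CAKO, with medians of 0.55 and 0.53, and -0.025 in CAKO;OvoD1 against OvoD1. Centring on muscle and photoreceptor genes gave 22 lower in CAKO against wildtype, 46 lower in the other 3 comparisons and 0 higher in both sterility comparisons, with medians of -0.23 (CAKO against wildtype), -0.34 (CAKO;OvoD1 against OvoD1), -0.11 (interaction), -0.60 (OvoD1 against wildtype) and -0.70 (CAKO;OvoD1 against CAKO). ND-75 became -0.21 and -0.25, and in CAKO;OvoD1 against CAKO UQCR-11 -0.049, ND-B8 -0.14 and COX7AL2 -0.22. In OvoD1 against wildtype UQCR-11, ND-B8 and COX7AL2 lost their calls under this centring. With median centring ATPsynbeta became 0.14 and 0.19, and ATPsynC 0.059 in CAKO;OvoD1 against CAKO.

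In CAKO against wildtype, the stricter filter gave 2 higher, probe-set means 2, and array weights 4 higher and 2 lower, and 2-group fits and the methods' t-test with Benjamini-Hochberg adjustment gave 0 lower. In CAKO;OvoD1 against OvoD1 weights, 2-group fits and the adjusted t-test gave 0 lower, and the adjusted t-test 0 higher. The adjusted t-test gave 1 lower in CAKO;OvoD1 against CAKO. The methods state no adjustment: at their threshold, a setting added after the data were seen, the t-test gave 1, 1, 2 and 3 higher in CAKO against wildtype, CAKO;OvoD1 against OvoD1, OvoD1 against wildtype and CAKO;OvoD1 against CAKO, and 0 lower in each. Same-numbered arrays deviated with correlations between -0.16 and 0.15, so the numbers do not pair them. A replicate block left 0 lower in CAKO;OvoD1 against OvoD1.

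With each array left out, CAKO against wildtype gave 1 to 6 higher (6 without wildtype replicate 2), 1 to 2 lower (2 without wildtype replicate 1) and medians of 0.00047 to 0.057. CAKO;OvoD1 against OvoD1 gave 1 to 2 higher (2 without wildtype or OvoD1 replicate 2), 0 to 1 lower and medians of -0.0095 to 0.013. The interaction gave 0 to 2 lower, and CAKO;OvoD1 against CAKO 1 to 2 lower. Higher counts ran from 27 to 39 in OvoD1 against wildtype and 27 to 33 in CAKO;OvoD1 against CAKO. Over 19 single-gene results, 366 of 399 repeats kept direction and side of the threshold, 25 lost the call and 8 turned, the turned ones all given above. Apart from the 1.5-fold limit, the shares of all genes under these alternatives were not counted. With 3 arrays per genotype, the number of arrays limits the precision.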
